A study of Mus musculus with 5 samples.

Results

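Cathepsins A, B, C, D, H, K, L, S and Z (Ctsa, Ctsb, Ctsc, Ctsd, Ctsh, Ctsk, Ctsl, Ctss and Ctsz) and their inhibitor cystatin C (Cst3) were followed across the cells of atherosclerotic mouse aortic arch. These 10 genes were taken by name from the 26189 genes of the molecule count tables, and all 10 were present in both tables. Female mice, 12 weeks old, of strain C57BL/6J (wild-type) or C57BL/6N-Saa3tm1.1(KOMP)Vlcg/MbpMmucd (Saa3-/-, lacking serum amyloid A3) were used, and the labels call them littermates. Both genotypes had eaten a Western diet for 18 weeks, so the labelled age cannot be the age at the end of the diet, and the labels do not say which time it refers to. Aortic cells were freed with liberase, hyaluronidase and DNase I, sorted as CD45+ and Live/Dead-, and marked with sample tags for BD Rhapsody single-cell RNA sequencing. Each genotype was 1 pool of cells from an unstated number of mice, and the genotype of a tag is known only from the names of the deposited tables. The study's 4 samples of cultured bone-marrow-derived macrophages were not analysed here.

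Cathepsins are proteases of lysosomes and endosomes that break down the proteins a cell takes up or recycles. Cathepsins B, C, H, K, L, S and Z are cysteine proteases, cathepsin D is an aspartic protease, and cathepsin A is a serine carboxypeptidase that also protects other lysosomal hydrolases. Cystatin C is a secreted inhibitor of cysteine cathepsins and does not act on cathepsins A and D. In atherosclerotic arteries, cathepsins K, L and S are known as elastin- and collagen-cutting enzymes of macrophages and smooth muscle cells, and cathepsin S trims the invariant chain of MHC class II.

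After removal of cells with more than 25% mitochondrial molecules, 833 cells of the pool labelled wild-type and 823 cells of the pool labelled Saa3-/- were left, with a median of 6415 and 4698 molecules per cell and no shared cell barcode. Saa3 itself went against the label. The pool labelled Saa3-/- held 1268 Saa3 molecules (242 CPM, where CPM is the number in every 1000000) and the pool labelled wild-type held 1079 (148 CPM). In macrophage-like cells 893 Saa3 molecules were counted in the pool labelled wild-type and 39 in the pool labelled Saa3-/-, whereas fibroblast-like cells held 26 and 1155, so genotypes are given throughout as labels. Cells were assigned to types by fixed markers that include no cathepsin and no cystatin, which placed 1465 cells and left 191 unassigned. C1qb stood at 4609.8 CPM in macrophage-like cells against 344 CPM in all other cells, Col1a2 (5769 against 354 CPM) and Acta2 (14663 against 687 CPM) marked fibroblast-like and smooth-muscle-like cells that remained among the cells sorted as CD45+. Doublets were not called beyond the 11 cells with several tags. Below, a level is the summed molecules of a gene divided by all molecules of the type, in CPM, paired values give the pool labelled wild-type first, and types are named without "-like". With 1 pool per genotype there was no replicate and no test between genotypes; 95% intervals are exact and cover counting error only. Because molecules were counted near the 3′ ends of transcripts, levels were compared between cells and not between genes.

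Of the 10 genes, 7 had their highest level in macrophages (Ctsa, Ctsb, Ctsc, Ctsd, Ctsh, Ctss and Ctsz), 2 in fibroblasts (Ctsk and Ctsl), and Cst3 in conventional dendritic cells. In each case the highest type did not overlap with the next one over the 2 pools. This gap compares the summed levels and leaves out counting error. For Ctsa and Ctsz the lead over monocytes was within counting error in the pool labelled wild-type. The log2 ratios of macrophages over monocytes there were 0.10 (-0.13 to 0.34) and 0.04 (-0.17 to 0.28). The shares of all genes with the same highest type or with such a gap were not counted. The comparison took 9 types: macrophages (228 and 165 cells), monocytes (35 and 28), conventional dendritic cells (23 and 18), fibroblasts (87 and 70), smooth muscle cells (90 and 54), T cells (180 and 211), B cells (45 and 94), thymocytes (9 and 35) and type 2 innate lymphoid cells (21 and 10). Cells with more molecules weigh more in a summed level, and macrophages (median 9577.5 and 6732 molecules per cell) were deeper than T cells (4575 and 3993).

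**Figure D1:**
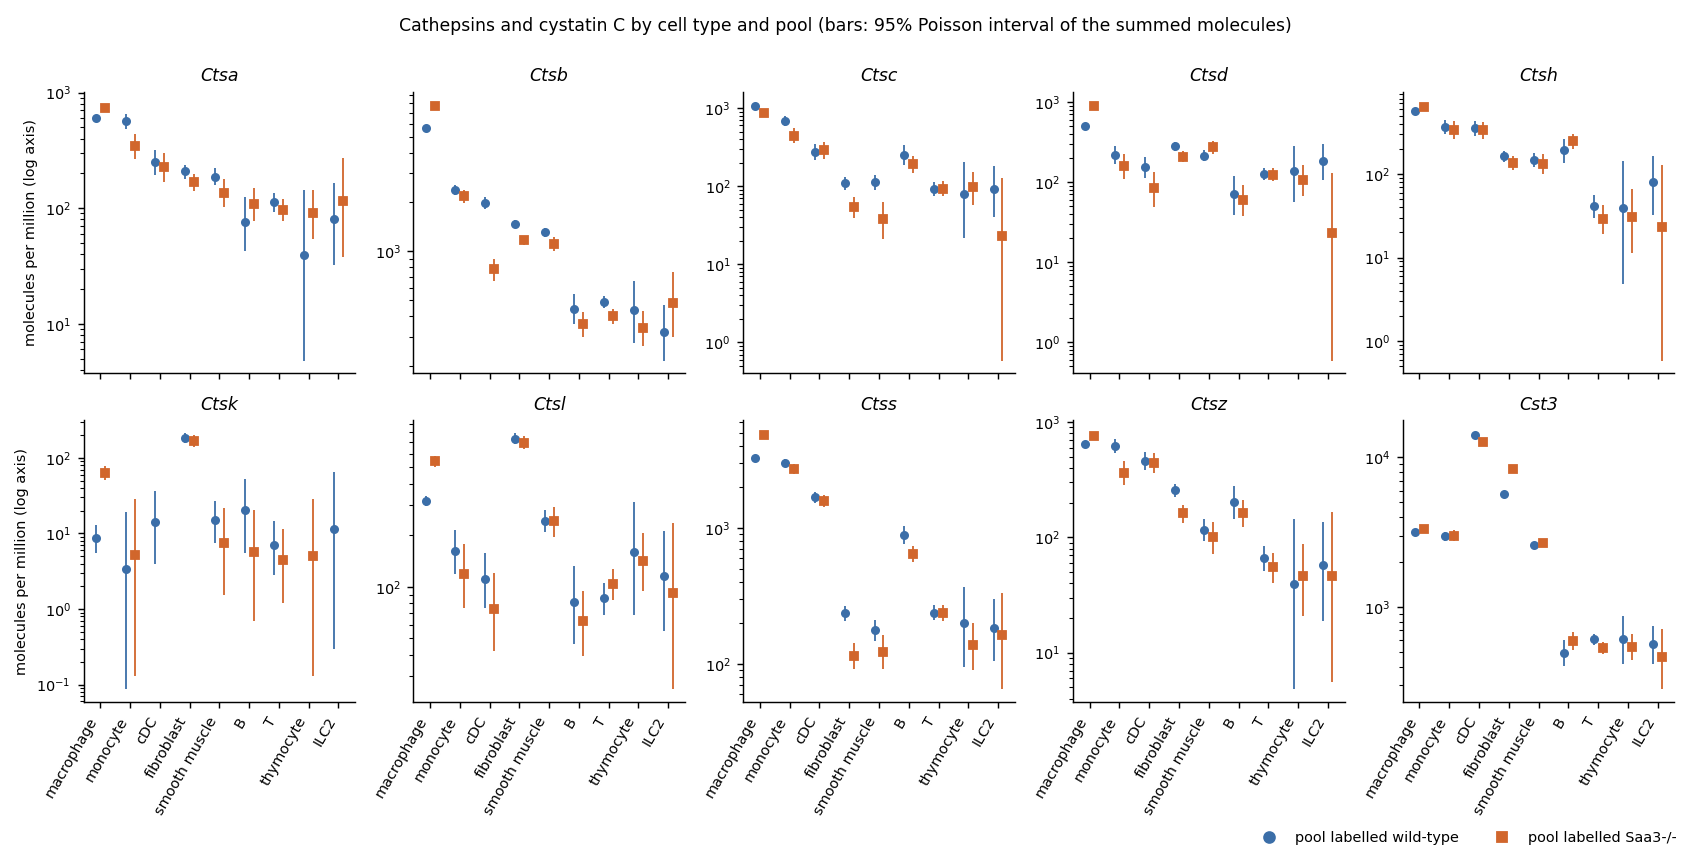
Summed level of each of the 10 genes (CPM, log axis) in the gated cell types, with 1 point per pool and bars for the exact 95% Poisson interval. Macrophages hold the highest points for 7 genes, fibroblasts for Ctsk and Ctsl, and conventional dendritic cells for Cst3.

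Among the endopeptidases of macrophages, Ctsb, a cathepsin that also trims peptides from the carboxyl end, stood at 5629.8 and 7738 CPM in macrophages and at 2371 and 2161 CPM in monocytes. Conventional dendritic cells (1983 and 774 CPM), fibroblasts (1467 and 1166 CPM) and smooth muscle cells (1307 and 1109 CPM) overlapped with one another. Ctsd, the main aspartic protease of lysosomes, stood at 498 and 883 CPM in macrophages, and its next types, smooth muscle cells (215 and 274 CPM), fibroblasts (279 and 207 CPM) and monocytes (219.6 and 160.3 CPM), could not be ordered. Ctss, the cathepsin of antigen-presenting cells, stood at 3256 and 4844 CPM in macrophages, 3005 and 2699 CPM in monocytes and 1678 and 1581 CPM in conventional dendritic cells. At least 2-fold higher levels in macrophages than in monocytes in both pools were found for Ctsb (2.37- and 3.58-fold) and Ctsd (2.25- and 5.43-fold), 2 of 9 members compared, where 4.95% of all genes met the same rule.

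The exopeptidases and Ctsa were also highest in macrophages and next highest in monocytes. For Ctsa and Ctsz this lead was within counting error in the pool labelled wild-type. Ctsc, which removes dipeptides and activates granule serine proteases, stood at 1074 and 873 CPM in macrophages and 689.6 and 445 CPM in monocytes. Ctsh, an aminopeptidase, stood at 569.7 and 636 CPM in macrophages, and its monocyte (367 and 336 CPM) and dendritic (354 and 334 CPM) levels overlapped. Ctsz, a carboxypeptidase, stood at 641 and 753 CPM in macrophages, with overlapping levels in monocytes (621 and 362 CPM) and conventional dendritic cells (462 and 445 CPM). Ctsa stood at 603 and 742 CPM in macrophages and at 563 and 346 CPM in monocytes.

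Ctsk and Ctsl separated fibroblasts from the other stromal type. Ctsk, the collagen-degrading enzyme best known from osteoclasts, stood at 183 and 168 CPM in fibroblasts, 11.6- and 19.1-fold the level in smooth muscle cells (15.2 and 7.54 CPM). Ctsl stood at 735 and 698 CPM in fibroblasts, 3.01- and 2.88-fold the smooth muscle level, and Cst3 at 5731 and 8408 CPM, 2.19- and 3.12-fold. These 3 of 10 members met the 2-fold rule in both pools, where 10.1% of all genes did. Against macrophages, 1 of 10 members, Ctsk, was 2-fold higher in fibroblasts in both pools (13.2% of all genes) and 6 were 2-fold lower (15.7%). The Ctsk signal was spread over many fibroblasts: 59.8% and 57.1% of them held at least 1 Ctsk molecule, or 27.1% (95% interval 18.0% to 37.8%) and 23.9% (14.3% to 35.9%) after every cell was thinned to 2000 molecules. In T cells, not known as a source of Ctsk, 3.89% and 1.90% held a Ctsk molecule without thinning; with thinning, 0 of 176 cells did, which allows a share of up to 1.70% (3 counts of the total) of cells with a molecule at that depth, and 0.483% of the other pool did.

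Cst3 stood at 14035 and 12690 CPM in conventional dendritic cells, 4.41- and 3.81-fold its level in macrophages (3183 and 3335 CPM). It was the 1 of 9 members compared that was 2-fold higher there than in macrophages in both pools, against 3.18% of all genes, while 5 members were 2-fold lower, against 8.44% of all genes. Every conventional dendritic cell held a Cst3 molecule after thinning. Monocytes (2968 and 3004 CPM) and smooth muscle cells (2612 and 2690 CPM) lay close to macrophages, and T cells (609.5 and 535 CPM) and B cells (497 and 598 CPM) overlapped.

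Lymphocyte levels were read against RNA free in the suspension, measured by the macrophage genes C1qa, C1qb and C1qc. In T cells the summed C1q level was 4.22% and 4.33% of the macrophage level, and Ctsb (8.69% and 5.16%), Ctss (7.32% and 4.90%) and Ctsh (7.26% and 4.57%) were above it in both pools. The myeloid gene Lyz2 stood at 4.94% and 6.27% there. In the pool labelled Saa3-/- Ctsb, Ctss and Ctsh were thus below Lyz2. Ctsl (26.9% and 19.2%), Ctsd (25.5% and 14.1%), Cst3 (19.1% and 16.04%) and Ctsa (18.7% and 13.1%) exceeded both C1q and Lyz2 in both pools. The macrophage genes gauge only free RNA that comes from macrophages. Fibroblasts held Ctsl at 230% and 129% and Cst3 at 180% and 252% of the macrophage level. For Ctsl and Cst3 the excess in T cells therefore cannot be told apart from free RNA of other types. B cells had a C1q level of 5.63% and 4.43%, but stood at 33.8% and 38.7% of the macrophage level for Ctsh, 31.6% and 21.6% for Ctsz, 27.1% and 13.3% for Ctss and 23.6% and 21.9% for Ctsc. Those were the 4 of 9 members compared that were at least 2-fold higher in B than in T cells in both pools, where 3.97% of all genes were, and B cells had the lower median depth (3670 and 3299 molecules per cell). Ctsh led with 193 and 246 CPM in B cells against 41.4 and 29.1 CPM in T cells, 4.66- and 8.34-fold. At 2000 molecules per cell, 33.3% and 29.2% of B cells and 5.68% and 5.80% of T cells held a Ctsh molecule, and 68.9% and 70.8% against 35.2% and 31.9% held a Ctss molecule. Without thinning these shares were 48.9% and 48.9% against 17.8% and 10.4% for Ctsh, and 88.9% and 84.0% against 61.1% and 51.2% for Ctss.

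Within macrophages, cells scored as lipid-laden (Trem2, Gpnmb, Spp1, Fabp5, Lgals3, Cd9, Fabp4 and Lpl; 55 and 51 cells) were set against macrophages with neither subset score (102 and 75 cells). Lipid-laden cells carried more Ctsd, Ctsb, Ctsl, Ctss, Ctsa, Ctsz and Ctsh, and less Ctsc. Ctsd stood at 930.2 and 1772 CPM in lipid-laden cells against 336 and 248 CPM, a log2 difference of 1.47 (1.29 to 1.65) and 2.83 (2.58 to 3.11). Ctsb stood at 8094 and 12785 CPM against 4034 and 3806 CPM, a log2 difference of 1.00 (0.95 to 1.06) and 1.75 (1.68 to 1.82). Both pools thus had the same order for these enzymes, although the size of the difference was larger in the pool labelled Saa3-/-. Ctsd and Ctsb were the 2 of 9 members compared that passed 2-fold in both pools, where 0.96% of all genes did once the subset markers were left out. Ctsb sat at that limit in the pool labelled wild-type, where its interval spanned 2-fold. The median log2 difference was 0.74 and 0.86 over the members and 0.04 and -0.05 over all genes.

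Ctsl had log2 differences of 0.91 and 2.19, Ctss of 0.76 and 1.07 and Ctsa of 0.74 and 0.86 between lipid-laden and other macrophages. Those of Ctsz were 0.47 and 0.71, and those of Ctsh were 0.31 and 0.41. Ctsc ran the other way in both pools, with -0.60 and -0.76, and Cst3 differed in sign (0.16 and -0.48). Resident-type macrophages (Lyve1, Folr2, Cd163, F13a1, Cbr2 and Timd4; 71 and 39 cells) had the highest Ctsc level of the 3 subsets, at 1326 and 1397 CPM. None of the 9 members compared passed 2-fold between resident-type and other macrophages, where 1.50% of all genes were higher and 1.21% lower. The order of the subsets by Ctsc was the same in both pools, with lipid-laden cells lowest.

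**Figure D2:**
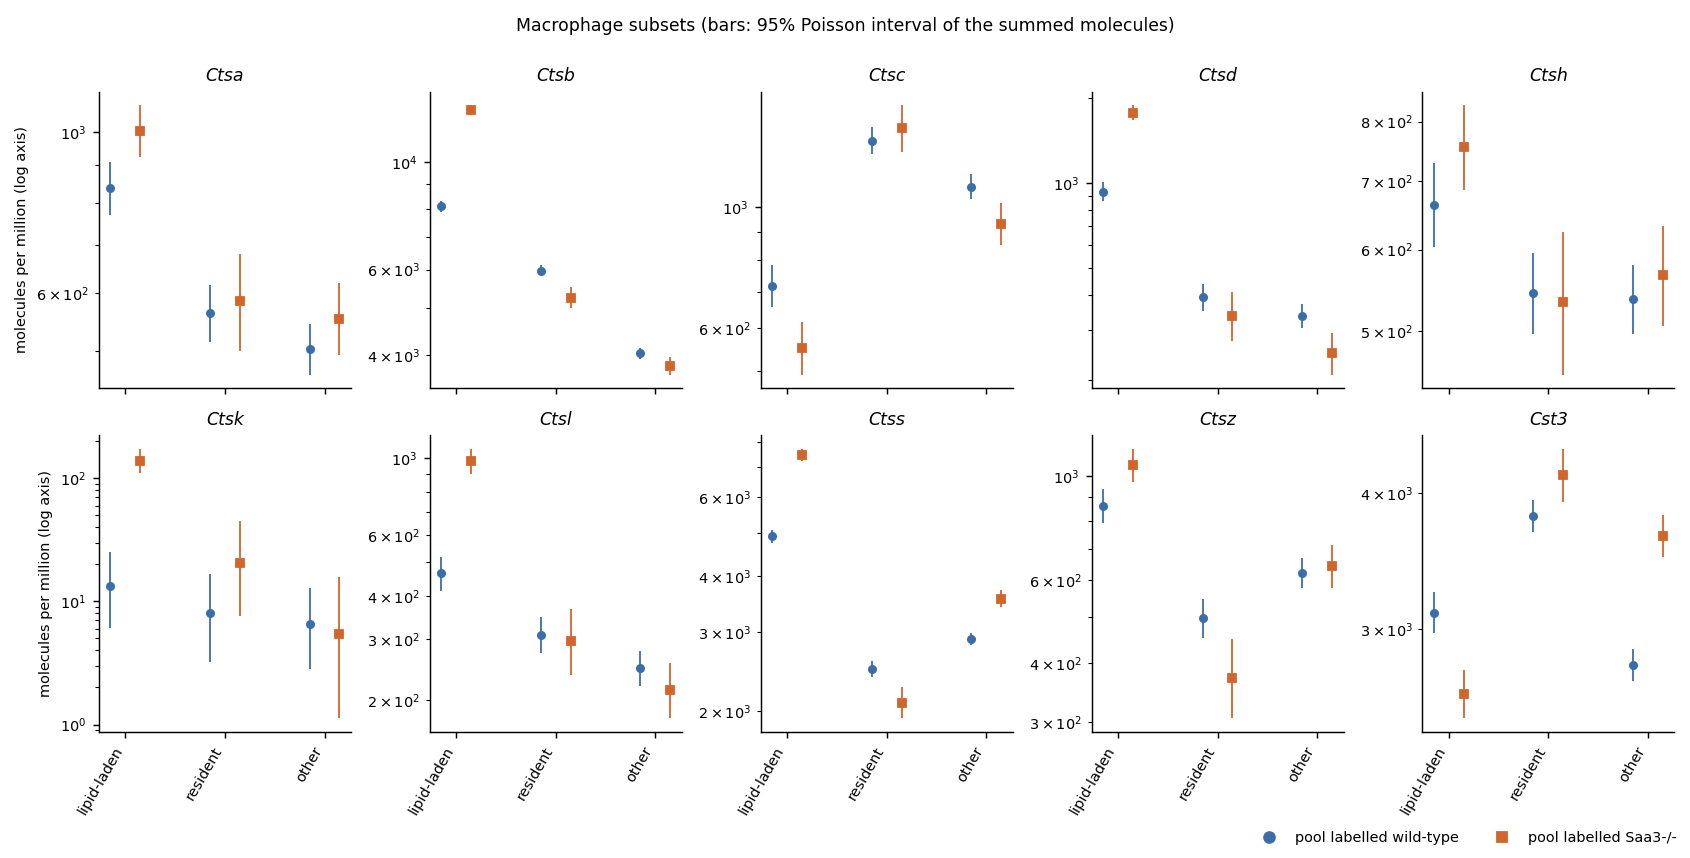
Level of each gene (CPM, log axis) in lipid-laden, resident-type and other macrophages, with 1 point per pool and bars for the exact 95% Poisson interval. Ctsd, Ctsb and Ctsl are highest in lipid-laden cells in both pools, and Ctsc is lowest there.

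The 3 members printed next carry in the 250 bases before a RefSeq start (GRCm38.p6) an E-box, CACGTG, the core of the motif known for TFEB and its relatives, regulators of lysosomal genes. They are the 3 of 8 members with a promoter entry that hold it, and all 3 were highest in lipid-laden macrophages. Ctss (4912 and 7478 CPM), Ctsz (863 and 1054 CPM) and Ctsk (13.4 and 139.6 CPM) were also highest there in both pools and hold no E-box in this window. For Ctsk the level in the pool labelled wild-type rested on 9 molecules. Ctsc and Cst3 hold no E-box in this window either. Ctsa has 2 RefSeq starts: the site printed lies before the second, which is inside the gene, and the window before the first holds none. By GENCODE coordinates, the proximal Ctsd site and the Ctsl site also lie inside their genes. Only the distal Ctsd site lies outside its gene. Capitals mark the E-box, and each sequence is on the strand of its gene, in order chr2:164833749-164833772 (+), chr7:142388055-142388077 (-), chr7:142387908-142387937 (-) and chr13:64370739-64370768 (-), all within the upstream promoter window.
Ctsa E-box, 12 bases before the start: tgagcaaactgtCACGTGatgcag
Ctsd distal E-box, 245 bases before the start: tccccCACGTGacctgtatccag
Ctsd proximal E-box, 98 bases before the start: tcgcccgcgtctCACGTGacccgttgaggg
Ctsl E-box, 236 bases before the start: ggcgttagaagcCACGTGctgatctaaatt

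Promoters were matched for 8 of 10 members, and Ctsb and Ctsh had no entry. CACGTG, which reads the same on both strands, occurs in 6.02% of the 32851 RefSeq upstream windows of the same length. The longer form TCACGTGA, which contains CACGTG, was found before Ctsa and at the proximal Ctsd site and occurs in 0.785% of windows. The PU.1-type motif GAGGAAGT (2.44% of windows, either strand) was found once, before Ctsc. For Ctsk, the member with the largest difference between pools in macrophages, the 250 upstream bases at chr3:95498960-95499209 (+) held none of the 5 motifs searched on either strand, that is the 3 above, the E-box CATGTG of the Mitf type (12.3% of windows) and the AP-1 motif TGANTCA (6.75%). These matches describe letters only and were not tied to binding.
Ctsk upstream: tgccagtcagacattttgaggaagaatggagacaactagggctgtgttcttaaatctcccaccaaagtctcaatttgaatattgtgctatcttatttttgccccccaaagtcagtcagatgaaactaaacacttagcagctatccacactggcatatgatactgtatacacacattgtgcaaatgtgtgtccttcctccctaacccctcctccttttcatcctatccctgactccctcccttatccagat

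In GENCODE coordinates on GRCm38, Ctsk (chr3:95499256-95509362) and Ctss (chr3:95526786-95556403) lie on the plus strand of chromosome 3, and Ctsd (chr7:142375911-142388038) and Ctsc (chr7:88278085-88310888) lie on chromosome 7. Ctsb (chr14:63122462-63145923) overlaps Fdft1 on the opposite strand, Ctsa (chr2:164832873-164841032) overlaps Pltp and Neurl2, and Ctsz (chr2:174427493-174439039) overlaps Nelfcd. Ctsl (chr13:64359337-64370890) overlaps an antisense transcript and a pseudogene on its own strand, and Ctsc overlaps a lincRNA on the opposite strand. Ctsd overlaps Gm49369, a protein-coding gene on the same strand, and Ctss the pseudogene Hmgb1-ps5 on the same strand, while Ctsh (chr9:90054152-90076089), Ctsk and Cst3 (chr2:148871722-148875692) overlap no other gene. Exonic and intronic reads were both counted, per the file header, so reads of overlapping genes could enter a count, those on the opposite strand only where strand was not used.

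Between the pools, macrophage Ctsk, Ctsd, Ctsl, Ctss and Ctsb were higher in the pool labelled Saa3-/- and Ctsc was lower. Ctsk was counted 24 times (8.68 CPM) in macrophages of the pool labelled wild-type and 89 times (62.8 CPM) in those of the pool labelled Saa3-/-, a log2 ratio of 2.83 (2.19 to 3.57). It was the 1 of 10 members past 2-fold, where 1.91% of 7998 genes were, and 3 were past 1.5-fold, where 9.85% of genes were. Ctsd followed with 1377 and 1251 molecules (498 and 883 CPM, log2 ratio 0.83, 0.71 to 0.94) and Ctsl with 882 and 766 molecules (319 and 541 CPM, 0.76, 0.62 to 0.90). Ctss had a log2 ratio of 0.57 (0.53 to 0.62) and Ctsb of 0.46 (0.42 to 0.49).

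Ctsa (0.30), Ctsz (0.23), Ctsh (0.16) and Cst3 (0.07) had smaller log2 ratios, and Ctsc was lower at -0.30 (-0.40 to -0.20). The median over the 10 members was 0.38, against 0.02 over all genes compared. It was 0.23 when the 5 cells highest in a gene were left out of each pool for that gene, and 0.21 when every cell weighed the same. Without those 5 cells Ctsl had a log2 ratio of 0.21 and Ctsk of 1.76. Macrophage depth also differed, with medians of 9577.5 and 6732 molecules per cell, and its part in the ratios was not tested.

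**Figure D3:**
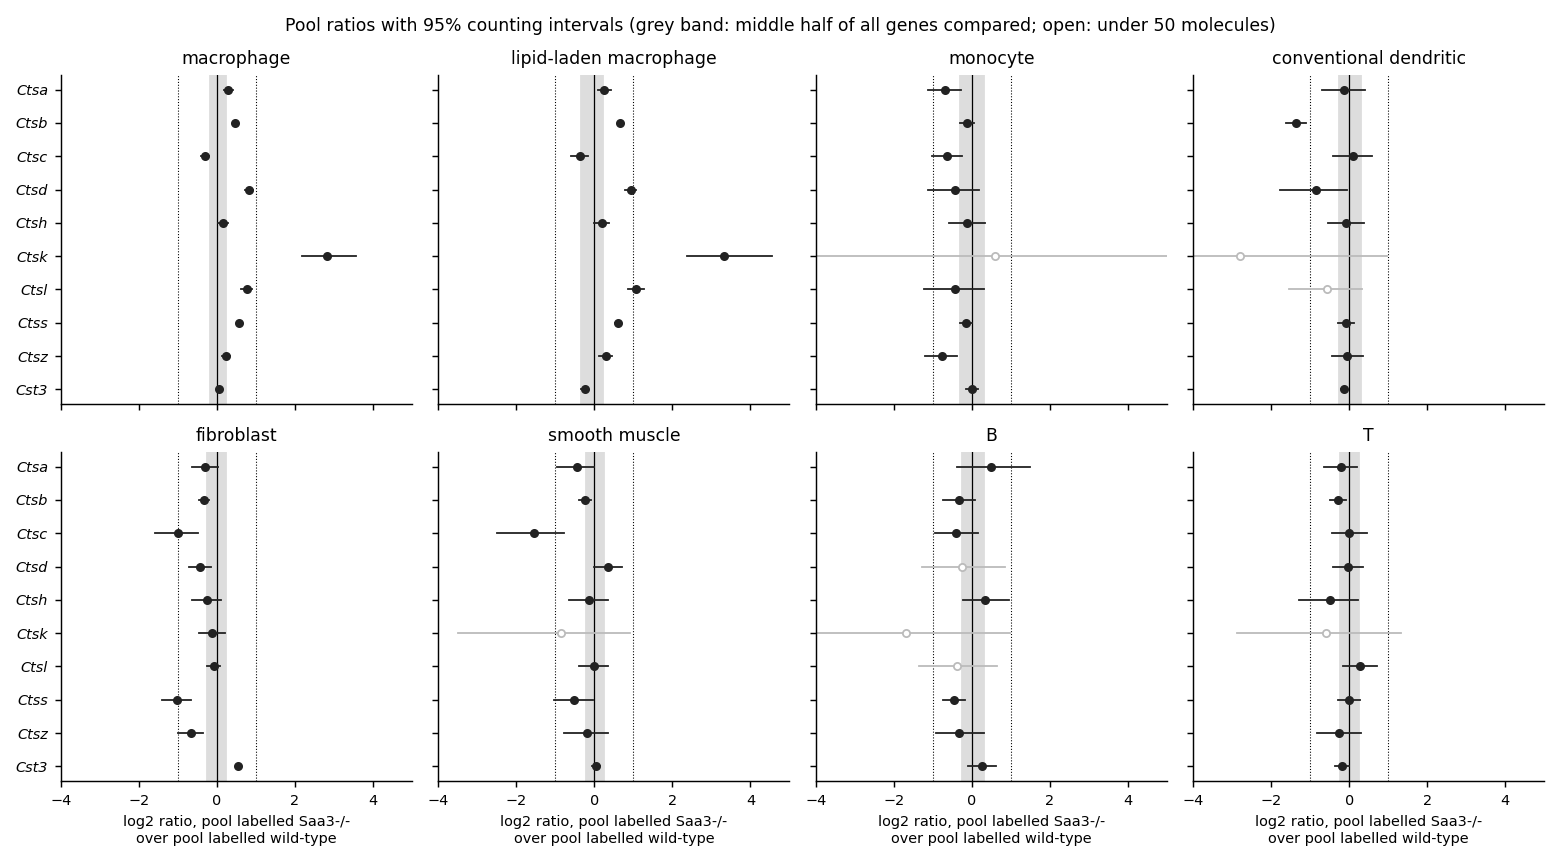
Log2 ratio between the pools (positive where the one labelled Saa3-/- was higher) for each gene in each cell type, with bars for the exact 95% interval of the counting ratio. In macrophages 9 of 10 genes lie above 0 (53.7% of all genes) and Ctsk lies highest, at 2.83. In monocytes 8 of 9 and in fibroblasts 9 of 10 lie below 0 (47.8% and 52.6% of all genes).

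Among the subsets, the median ratio of the members was highest in lipid-laden cells (0.45, against -0.04 over all genes). In lipid-laden cells Ctsk stood at 13.4 and 139.6 CPM (9 and 80 molecules; log2 ratio 3.31, 2.38 to 4.56) and Ctsl at 464 and 980.4 CPM (1.08, 0.88 to 1.28). They were the 2 of 10 members past 2-fold, where 3.84% of all genes were, and 5 were past 1.5-fold, where 19% of genes were. The Ctsl value rested on few cells: 5 cells gave 47.8% and 61.7% of its molecules, the median of single cells was 283 and 355 CPM, and the ratio was 0.63 without the 5 highest cells and 0.78 with equal weight per cell, both below 2-fold. Ctsd stood at 930.2 and 1772 CPM (0.93, 0.78 to 1.08), and the median of single cells was 471 and 1503 CPM. Ctsb stood at 8094 and 12785 CPM (0.66, 0.61 to 0.71), Ctss had a ratio of 0.61, and Ctsc (-0.38) and Cst3 (-0.25) were lower. In resident-type cells (median -0.05) and other macrophages (median 0.05), none of the 9 members compared passed 2-fold, where 4.31% and 3.18% of all genes did.

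Gpnmb, Fabp5 and Lpl, among the markers that placed cells in the lipid-laden subset, moved with these ratios. Of the other markers only Trem2 is given here. Within lipid-laden cells Gpnmb stood at 844 and 3241 CPM, Fabp5 at 592 and 2228 CPM and Lpl at 1350.0 and 2556 CPM, while Trem2 had a log2 ratio of 0.36. Gpnmb, a glycoprotein of foam cells and lysosomal stress, exceeded 10 molecules per 10000 in 11 of 228 macrophages (4.82%, 2.43% to 8.47%) and in 24 of 165 (14.5%, 9.55% to 20.9%). In cells above that limit, Ctsb stood at 15961 and 17200.2 CPM, Ctsd at 1913 and 2528 CPM and Ctsl at 1214 and 1548 CPM. In cells with no Gpnmb molecule the levels were 4903 and 4389 CPM for Ctsb, 343 and 279 CPM for Ctsd and 281 and 243 CPM for Ctsl. Above the limit the ratios between pools were 0.11 for Ctsb, 0.40 for Ctsd and 0.35 for Ctsl, and without Gpnmb they were -0.16, -0.30 and -0.21. In macrophages with Gpnmb up to the limit (68 and 33 cells), Ctsb stood at 5391 and 6655 CPM, Ctsd at 539 and 745 CPM and Ctsl at 265 and 294 CPM. There 9 of 9 members compared had a ratio above 0 (median 0.14), where 53.1% of all genes did. With the subsets of the pool labelled Saa3-/- weighted as in the other pool, a step chosen after the data were seen, the macrophage ratio was 0.38 for Ctsd, 0.42 for Ctsl and 0.19 for Ctsb. The Gpnmb classes were also set after the data were seen, and the highest holds few cells: 5 cells of the pool labelled wild-type gave 84.5% of its Ctsb molecules.

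**Figure D4:**
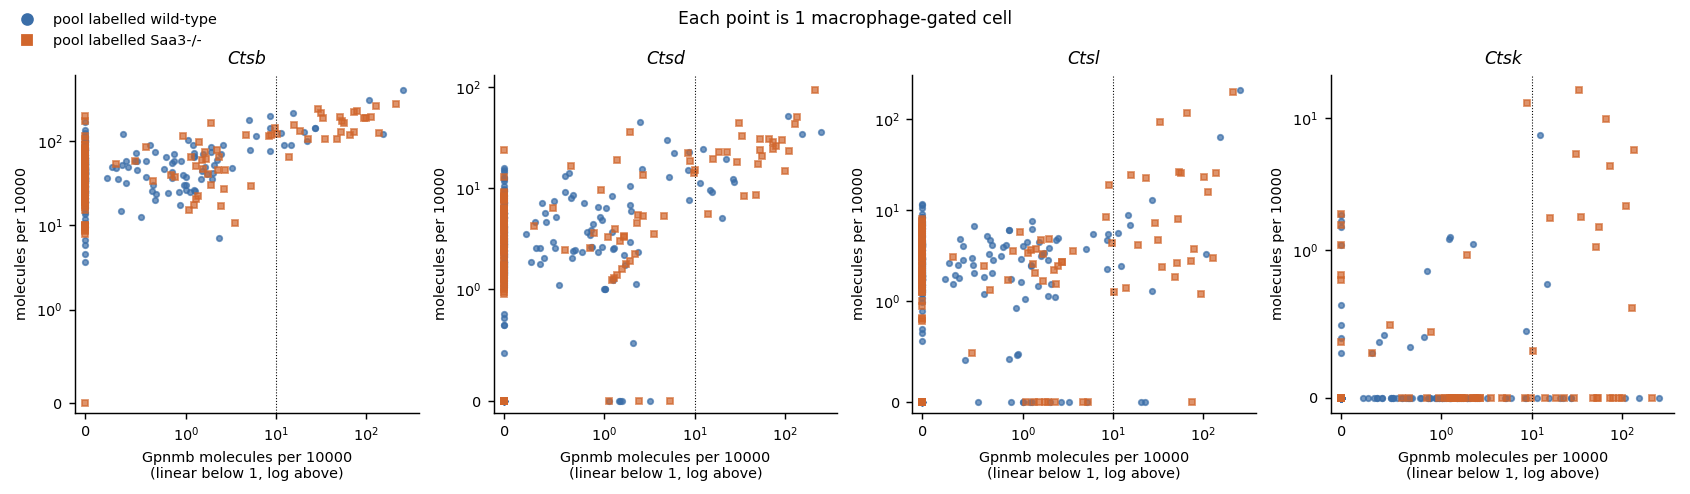
Levels of cathepsins in single macrophages (per 10000 molecules of the cell) against Gpnmb per 10000 molecules of the same cell, with pools in separate colours. Cells with more than 10 Gpnmb molecules per 10000 number 11 of 228 and 24 of 165.

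Macrophage Ctsk came from few cells. In the pool labelled wild-type 20 of 228 macrophages held Ctsk, none with more than 3 molecules. In the pool labelled Saa3-/- 23 of 165 did, and 5 cells with more than 3 molecules held 63 of the 89. All 5 were lipid-laden, with summed levels of 5964 CPM Gpnmb, 18784 CPM Ctsb, 3186 CPM Ctsd and 2972 CPM Ctsl. The fibroblast markers summed to 601 CPM in these cells, against 745 CPM in macrophages of that pool without Ctsk and 31798 CPM in its fibroblasts. Above the Gpnmb limit Ctsk stood at 45.5 and 213 CPM (6 and 66 molecules; log2 ratio 2.12, 1.03 to 3.72).

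Outside macrophages most members compared had a ratio below 0. These were 8 of 9 in monocytes, 7 of 8 in conventional dendritic cells and 9 of 10 in fibroblasts. They were 7 of 9 in smooth muscle cells, 7 of 9 in T cells and 4 of 7 in B cells. Of all genes in these types, 46.4% to 52.6% had a ratio below 0. Some counting intervals spanned 0, as for monocyte Ctsb (-0.31 to 0.04) and Ctsd (-1.12 to 0.19). Monocytes had a median log2 ratio of -0.42, with Ctsz (-0.77), Ctsa (-0.69) and Ctsc (-0.63) lowest and 0 of 9 members past 2-fold, where 5.67% of all genes were. T cells (median -0.19, 0 of 9 members, 2.72% of all genes) and B cells (median -0.32, 0 of 7 members, 3.94% of all genes) had no member past 2-fold either. In smooth muscle cells Ctsc was the 1 of 9 members past 2-fold (82 and 15 molecules; 113 and 37.7 CPM; -1.54, -2.48 to -0.78), where 1.55% of all genes were. Ctsc there was 10.5% and 4.32% of its macrophage level, and C1q was 5.67% and 5.00%.

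Conventional dendritic cells had 1 of 8 members past 2-fold, Ctsb, where 5.43% of all genes were. Ctsb was counted 554 and 167 times (1983 and 774 CPM; log2 ratio -1.35, -1.61 to -1.10), but 221 of the first number came from a single cell. Without the highest cell of each pool the levels were 1305 and 609.7 CPM, and without the highest 2 they were 877 and 568 CPM. The Gpnmb count of these dendritic cells was 74 and 9 molecules, and 13 and 8 without the highest Ctsb cell of each pool. Without the 5 highest cells the ratio was -0.27.

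In fibroblasts Ctss (230 and 87 molecules; 235 and 115 CPM; log2 ratio -1.03, -1.41 to -0.67) and Ctsc (107 and 41 molecules; 109 and 54.1 CPM; -1.01, -1.57 to -0.48) were the 2 of 10 members past 2-fold, where 4.29% of all genes were. The macrophage genes C1qa (-0.63), C1qb (-0.67), C1qc (-0.47) and Lyz2 (-0.94) were lower beside them, and their part was not tested. Without the 5 highest cells of each pool the ratios were -0.43 for Ctss and -0.46 for Ctsc. Fibroblast Cst3 ran the other way (5731 and 8408 CPM; 0.55, 0.50 to 0.61), but 5 cells gave 55.3% of its molecules in the pool labelled Saa3-/- and 29.6% in the other, and the ratio was 0.11 without them. Fibroblast Ctsk (183 and 168 CPM) and Ctsl (735 and 698 CPM), which were highest in fibroblasts among the types compared, were below 1.5-fold. Macrophages above the Gpnmb limit held more Ctsl (1214 and 1548 CPM), and Ctsk there stood at 45.5 and 213 CPM.

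Other genes of the lysosomal pathway were read from fixed lists in macrophages, where 53.7% of all genes compared had a ratio above 0. Of the lysosomal membrane and acidification list, 11 of 14 genes with at least 50 molecules had a ratio above 0 (median log2 ratio 0.13), but the counting interval lay above 0 for 6, spanned 0 for 8 and lay below 0 for none. Atp6v0d2, a proton pump subunit, was the 1 gene of these lists past 2-fold (1.99, 1.59 to 2.40), and the tetraspanin Cd63 was next in its list (0.73). Of 15 other lysosomal hydrolases, 13 had a ratio above 0 (median 0.16), and the interval lay above 0 for 7, among them the acid lipase Lipa (0.49), and below 0 for 1, Naaa (-0.64). Of 8 enzyme sorting genes the interval lay above 0 for 1, Lrp1 (0.25), and spanned 0 for 7. Of 4 genes for cathepsin maturation and partners, Psap (0.54) and Lgmn, which cleaves procathepsins (0.21), were higher beyond counting error, Neu1 (-0.46), a partner of cathepsin A, was lower, and the interval of Glb1 (-0.24) spanned 0.

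The intervals of all 4 genes of the TFEB family spanned 0 (Tfeb 0.27, Tfec 0.26, Tfe3 -0.16, Mitf -0.32). Of further inhibitors, cystatin B (Cstb, 0.38) and Serpinb6a (0.21) reached 50 molecules and had intervals above 0, and of further cathepsins Ctsf (-0.17) and Ctso (0.31) did, with intervals that spanned 0. Of 7 MHC class II and invariant chain genes the interval lay below 0 for 4 and spanned 0 for 3 (median -0.09). Of 8 elastin, collagen and basement membrane genes it lay above 0 for 1, below 0 for 2 and spanned 0 for 5 (median -0.24). Of 9 genes of the dissociation stress list, a sign of cell handling, it lay above 0 for 6 and spanned 0 for 3 (median 0.19). In lipid-laden macrophages, where 45.6% of all genes had a ratio above 0, the same list had 1 gene with an interval above 0, 3 below and 5 that spanned 0 (median -0.15). The part of that list in the macrophage ratios was not tested. No gene of the granule protease list that cathepsin C activates reached 50 molecules in macrophages.

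The genes most like each member were sought by Pearson's r of log levels over 15 combinations of type and pool among 8164 genes; the combinations share cell types and free RNA, so r is a description. Ctsb was closest to Grn (0.97) and Asah1 (0.96), Ctsa to Sdcbp (0.97) and Ccl9 (0.96), and Ctsd to Itm2b and Lpl (both 0.91). Ctsc and Ctss shared their closest gene, Tcirg1 (both 0.97), and Ctsz was closest to Zeb2os (0.95). Ctsk was closest to Col14a1 (0.89) and Pdgfrl (0.88), and Ctsl to Timp2 (0.92) and Ecm1 (0.91). Cst3 was closest to Mmp14 (0.91). Across single macrophages thinned to 2000 molecules (223 and 162 cells), Ctsb and Ctsd had a Spearman correlation of 0.45 and 0.50.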

How the data were processed

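Whole-number molecule counts per gene and cell were deposited by the authors as 1 table per sample tag. Per the file headers, they came from the BD Rhapsody WTA pipeline 1.11.1 on GRCm38 with intronic reads counted and refined cell calling, and use of strand is not given in the sources used here. Per the submitters' processing notes, R 4.3.1, Seurat 4.3.0 and mm10 were also used. Cells over 25% mitochondrial molecules were removed (56 and 31 cells). Cells were gated by the mean score of their 3 highest fixed markers, at least 3 of them above the median cell, with a lead of 0.1 over the next type; macrophage subsets needed a score of 0.5. Molecules were summed per type and pool. Genes with at least 50 molecules were compared, with 0.5 added to both counts, and exact Poisson or conditional binomial 95% intervals. Without replicate pools no p-value was computed. Totals of 7289593 and 5231922 molecules limited precision in small types. On simulated macrophage counts of 7982 genes in both pools, 191 of 191 changed genes were recovered and 21 of 7791 unchanged genes were called. The changes were planted larger than the 2-fold rule, and counts were drawn without spread between cells or pools. The simulation therefore cannot show how calls near 2-fold or signals from few cells behave.

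The text names all 10 members, the 3 genes most like each one (up to 3 are printed), and up to 2 highest and 2 lowest genes of each list. The members and lists were chosen with earlier results of these data known, and the gate's scoring was chosen after the tables were seen. Alternatives covered gates, Leiden clusters, filters, pseudocount, TMM scaling and cell weights. Python 3.11.15, numpy 2.4.6, pandas 2.3.3, scipy 1.17.1, scikit-learn 1.9.0, igraph 0.11.9, leidenalg 0.10.2, matplotlib 3.10.9, R 4.3.3 and edgeR 4.0.16 (TMM factors only) were used. Promoters came from a RefSeq table of GRCm38.p6. A further treatment that both genotypes shared is not reported here.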

Additional observations from a re-analysis of the deposited data

Results flagged for a closer look

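In 2 cases a member stood at least 2-fold lower in the pool labelled Saa3-/- in 1 cell type and higher in macrophages. Ctsb had a log2 ratio of -1.35 in conventional dendritic cells and 0.46 in macrophages, and Ctss had -1.03 in fibroblasts and 0.57 in macrophages. Each type was 1 pool per genotype, so the difference between types was not tested. Of the 554 dendritic Ctsb molecules of the pool labelled wild-type, 221 came from 1 cell, and the levels were 1305 and 609.7 CPM without the highest cell of each pool. The fibroblast value was accompanied by lower levels of the macrophage genes C1qa, C1qb and C1qc.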

How the results depend on the processing

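No paired analysis was possible because each genotype was 1 pool of cells. The median log2 ratio of the members in macrophages (0.38) was 0.28 with Leiden clusters, 0.21 with equal weight per cell, 0.23 without the 5 highest cells, 0.18 at the subset mix of the other pool and 0.27 above the Gpnmb limit, the last 2 chosen after the data were seen. In conventional dendritic cells it was -0.54 with Leiden clusters, against -0.11 with the main choices. With Leiden clusters 1 member, Ctsd, passed 2-fold over monocytes in both pools. Over the 7 types, 5 member ratios passed 2-fold; 3 did with equal weight per cell, 12 at 1.5-fold and 2 with at least 200 molecules. Macrophage Cst3 turned from 0.07 to -0.27 above the Gpnmb limit. Of the alternatives to main summaries, 111 stayed within the range counting error allows (1.5 times for counts) and 10 did not; for single members 228 did, 78 moved beyond it and 1, that of Cst3, changed sign. Small types limit depth: dendritic cells numbered 23 and 18.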

Other observations

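Ctsl was also read in lymphoid types, as values without a test. Ctsl stood at 159 and 142 CPM in thymocytes and at 85.8 and 104 CPM in T cells, and the thymocytes numbered 9 and 35. With 50349 and 196608 molecules of all genes, the thymocyte levels rested on few Ctsl molecules. No interval was computed for the difference, and none is claimed.

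Because Ctsk is known from osteoclasts, other osteoclast genes were read in lipid-laden macrophages, a choice made after the values were seen. Atp6v0d2, an osteoclast proton pump subunit, was counted 38 and 152 times (log2 ratio 2.21, 1.71 to 2.78), and Acp5, the tartrate-resistant acid phosphatase, 96 and 197 times (1.26, 0.91 to 1.63). Dcstamp, needed for cell fusion, was lower in the pool labelled Saa3-/- (36 and 11 molecules, -1.44), as was Mmp9 (20 and 1 molecules). Nfatc1, the osteoclast transcription factor, was counted 52 and 42 times (-0.08). Tnfrsf11a, the RANK receptor, was counted 52 and 43 times (-0.04) and Car2 0 and 10 times, and the other 4 of the 11 genes read (Ocstamp, Calcr, Oscar and Itgb3) had at most 11 molecules over both pools. The genes did not share 1 direction.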
